A study of Rattus norvegicus with 8 samples.

Results

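The genes described here are 33 genes of fatty acid uptake, activation and oxidation. Their list was chosen with earlier results of these data known. They were read on arrays of rat extraocular muscle, the small muscles that move the eye. Each gene is represented by its probe set (the group of array probes that reports 1 transcript) of highest mean log2 signal. All 33 were found among the 14217 genes with a symbol of their own in the platform annotation, and all 33 passed the filter on dim probe sets. One Affymetrix array was made from total RNA of each of 8 adult Sprague-Dawley rats. The hyperthyroid group, 4 rats numbered 1, 2, 3 and 5, received intraperitoneal T3 (triiodothyronine, the active thyroid hormone) at 25 µg per 100 g body weight on alternate days for 6 weeks and was examined 24 hours after the last dose. The control group, 4 rats numbered 7, 8, 9 and 11, was untreated, so injection itself also differed between the groups. The rats weighed 200 g on average at the start. The comparison asks how chronic thyroid hormone excess relates to transcript levels in these muscles.

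Fatty acids reach a muscle fibre from lipoproteins and albumin, cross its membrane and are joined to coenzyme A. Carnitine carries the acyl group into the mitochondrion, where a repeated spiral of dehydrogenation, hydration, dehydrogenation and thiolysis removes acetyl-CoA and passes electrons to the respiratory chain through the electron transfer flavoprotein. Thyroid hormone is known to raise fatty acid use in many tissues, and extraocular muscles are known for a high content of mitochondria.

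The array labelled hyperthyroid 5 stood apart. Its summed signal of 3 myosins typical of these muscles (Myh13, Myh8 and Myh3) was 223, against 22626 to 36116 on the other hyperthyroid arrays and 20859 to 31086 on controls. The summed signal of 6 slow-fibre markers was 55880 on it, against 9714 to 23353 on the other hyperthyroid arrays and 9998 to 16390 on controls. The defining marker Myh13 was thus at 4.17 on that array, near 0 beside 5430 or more on each of the other 7, while 7 general skeletal muscle markers summed to 156680 on it, close to the highest control (153150). The 6 measured homeobox genes of limb and trunk position summed to 1221 on this array, against 115 to 181 on the other hyperthyroid arrays and 108 to 153 on controls. These values go against the extraocular tissue named in its label, so a value over all 8 arrays may set more than 1 kind of muscle against the controls. RNA length was judged by Gapdh, whose 3 prime over 5 prime signal grows as RNA is degraded. This quotient averaged 2.98 ± 1.40 in hyperthyroid muscle and 1.77 ± 0.136 in control muscle (SD, n = 4 each; exact permutation p = 0.229, two-sided, where 0.0286 is the smallest possible). Hyperthyroid 1, 2 and 3, at 3.91, 4.40 and 2.18, exceeded every control, and hyperthyroid 5 was at 1.44. Values below are on all 8 arrays unless stated. Those of the gene sets are also given without hyperthyroid 5, as are those of single genes among the 33 whose sign turned or whose log2 difference moved by over 1.5 times.

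No gene of the 33 passed the test between the groups. With limma on the log2 signals, and Benjamini-Hochberg adjustment over all 18625 probe sets tested, 0 of 33 genes had an adjusted p under 0.05, and 0% of all probe sets did. At an unadjusted p under 0.05, 11 of the 33 genes were lower in hyperthyroid muscle and 1 was higher, while 5.3% of all probe sets were lower and 6.25% were higher at that level. After median centring of the arrays the counts were 18 lower and 1 higher among the 33 genes, beside 8.71% and 3.04% of all probe sets. Most of the genes are bright, with 26 of 33 in the brightest 20% of the probe sets tested. In that bright set, 11.8% of probe sets were lower at an unadjusted p under 0.05 and 7.17% were higher. The groups did not overlap in 8 genes that were lower and 1 that was higher, against 3.23% and 4.33% of all probe sets. The median log2 difference of the 33 genes was -0.26, with 25 genes lower and 8 higher. Of all probe sets tested 47.5% were lower, and of the brightest 20%, 58.7%. Over all probe sets tested the median was 0.03, and over the brightest 20% it was -0.06.

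Without hyperthyroid 5, 0 of 33 genes passed, against 0.156% of all probe sets. In that comparison 14 genes were lower at an unadjusted p under 0.05 and 1 was higher, beside 7.66% and 7.59% of all probe sets and, in the brightest 20%, 18.6% and 10%. The groups did not overlap in 11 genes that were lower and 1 that was higher, against 6.51% and 8.28% of all probe sets. The median of the 33 genes was -0.32, and that of all probe sets was 0.04. Of the 11 genes lower at an unadjusted p under 0.05 on all 8 arrays, 11 were so here too. In these bulk samples, fewer cells of a type and less RNA per cell cannot be told apart.

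**Figure D1:**
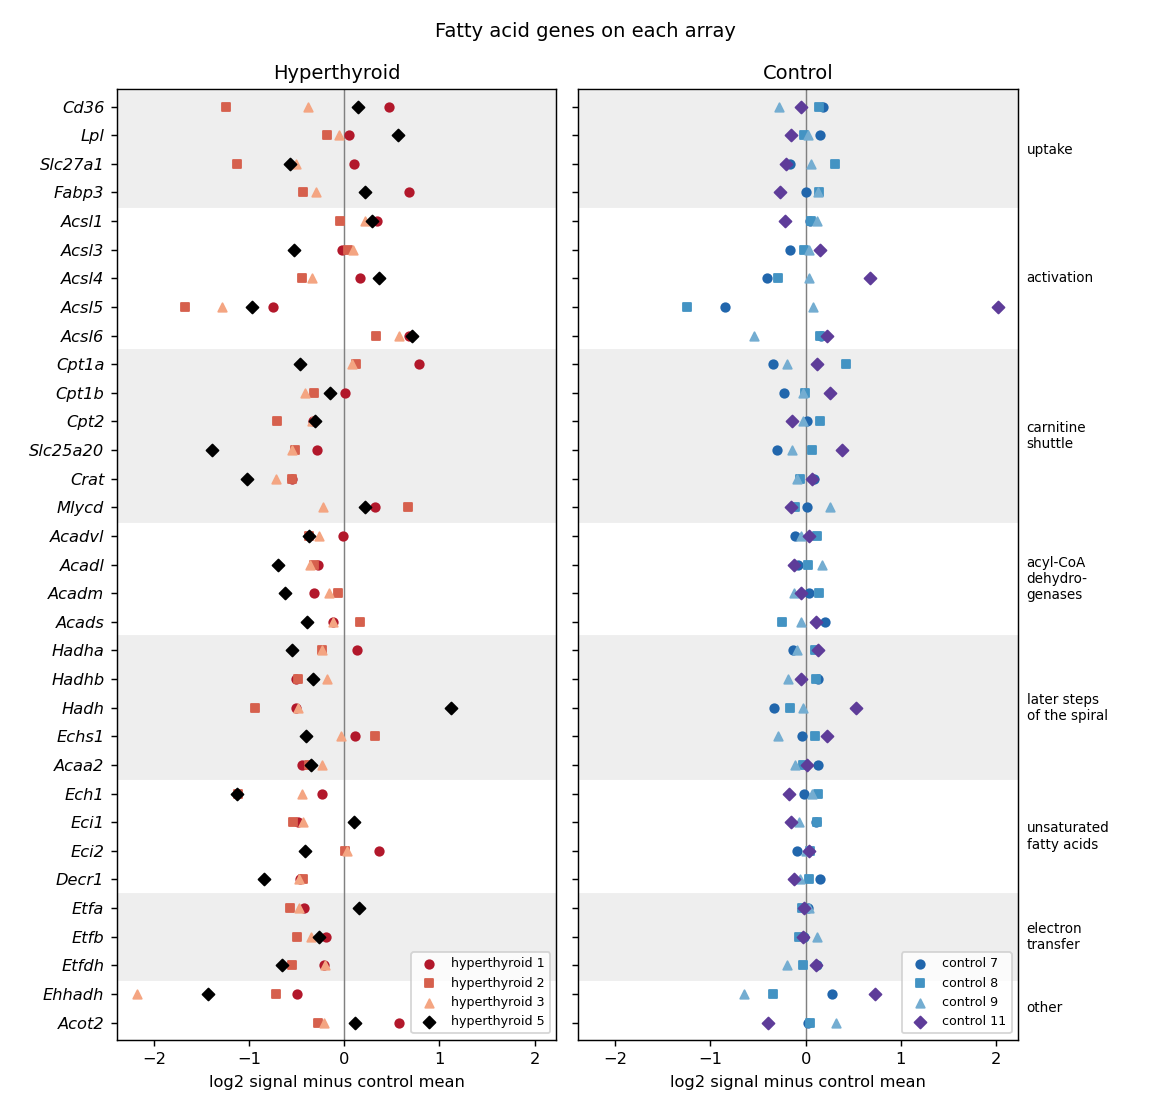
Log2 signal of each of the 33 genes minus its control mean (horizontal axis) on each hyperthyroid array (left) and control array (right), ordered by step of the pathway from uptake at the top. Hyperthyroid arrays lie mostly to the left of 0 from Cpt2 down to Etfdh, except for Mlycd, Echs1, Eci2 and some single arrays such as hyperthyroid 5 for Hadh, Eci1 and Etfa, while the genes of uptake and activation scatter to both sides.

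The steps differed in how evenly the 4 hyperthyroid arrays lay below the controls. The 16 genes of the mitochondrial spiral and of electron transfer had a mean log2 signal, relative to the control mean, of -0.22, -0.37, -0.28 and -0.35 on hyperthyroid 1, 2, 3 and 5. The same mean was 0.00, 0.02, -0.05 and 0.03 on control 7, 8, 9 and 11. In this mean all 4 hyperthyroid arrays were thus lower than all 4 controls. Gene by gene, the groups were lower without overlap in 6 of the 16, against 3.23% of all probe sets. For the 5 genes of the later steps of the spiral alone, the means overlapped, with hyperthyroid 5 at -0.10 and control 9 at -0.14. Of the 16 genes, 15 had a negative log2 difference on all 8 arrays and 14 without hyperthyroid 5. Of all probe sets tested, 47.5% and 45.8% did so, and of the brightest 20%, 58.7% on all 8 arrays. On hyperthyroid 1, 2, 3 and 5, 11, 12, 12 and 13 of them lay below every control. Of all probe sets tested, 23%, 26.5%, 20% and 26.4% did so on these arrays, and of the brightest 20%, 37.8%, 37%, 32.3% and 32.8%.

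Markers of some other cell types also differed in the mean, with summed signals that overlapped between the groups. All 5 measured markers of glia, the supporting cells of nerves and of central nervous tissue, had negative log2 differences (median -2.46, and -0.96 without hyperthyroid 5). They summed to 24072, 7054, 15663 and 3059 on hyperthyroid 1, 2, 3 and 5, against 13327 to 27035 on controls. Hyperthyroid 2 and 5, lowest in the glial sum and in the mean of the 16 genes, had Mobp at 15.3 and 1.37, near 0 beside 1249 or more on each of the other arrays. Hyperthyroid 1 and 3 were higher in both, with glial sums within the controls and means of the 16 genes below every control. The 7 measured endothelial markers had positive log2 differences (6 of 7 without hyperthyroid 5) and summed to 2558 to 3102 on hyperthyroid arrays, against 2187 to 2764 on controls. All 4 tested markers of gland epithelium had negative log2 differences (median -1.54, and -1.28 without hyperthyroid 5). The 5 measured summed to 332, 219, 131 and 45.3 on hyperthyroid 1, 2, 3 and 5, against 318 to 856 on controls. The part of these cell types in the values of the 16 genes was not tested.

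For the 9 genes of uptake and activation the corresponding means were 0.19, -0.53, -0.22 and 0.03 on hyperthyroid 1, 2, 3 and 5, against -0.12, -0.09, -0.04 and 0.24 on control 7, 8, 9 and 11. Here the groups overlapped, and the hyperthyroid arrays spread more widely than the controls. The control 11 mean includes an Acsl5 signal of 2033, against 211 to 528 on the other controls. That signal also enters the control mean to which each array is compared. On hyperthyroid 1 none of the 9 genes lay below every control (0 of 9) and 4 lay above every control. On hyperthyroid 2 the counts were 6 below and 1 above, on hyperthyroid 3 they were 4 and 2, and on hyperthyroid 5 they were 2 and 4. Of all probe sets tested, 23% lay below and 28.6% above on hyperthyroid 1, and 26.5% below and 30.2% above on hyperthyroid 2. Of the brightest 20%, 37.8% lay below and 23.7% above on hyperthyroid 1, and 37% below and 28.5% above on hyperthyroid 2. On hyperthyroid 3 and 5, 20% and 26.4% of all probe sets lay below, and 32.3% and 32.8% of the brightest 20%. The shares above were not counted on these last arrays. Without hyperthyroid 5, the 4 uptake genes all had negative log2 differences, against 2 of them on all 8 arrays, and the 5 activation genes had 2 negative and 3 positive. The 6 genes of the carnitine shuttle had means of -0.01, -0.22, -0.36 and -0.52 on hyperthyroid 1, 2, 3 and 5. Their means were -0.13, 0.08, -0.04 and 0.09 on control 7, 8, 9 and 11, so the groups overlapped through hyperthyroid 1. The difference between the steps was not tested.

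**Figure D2:**
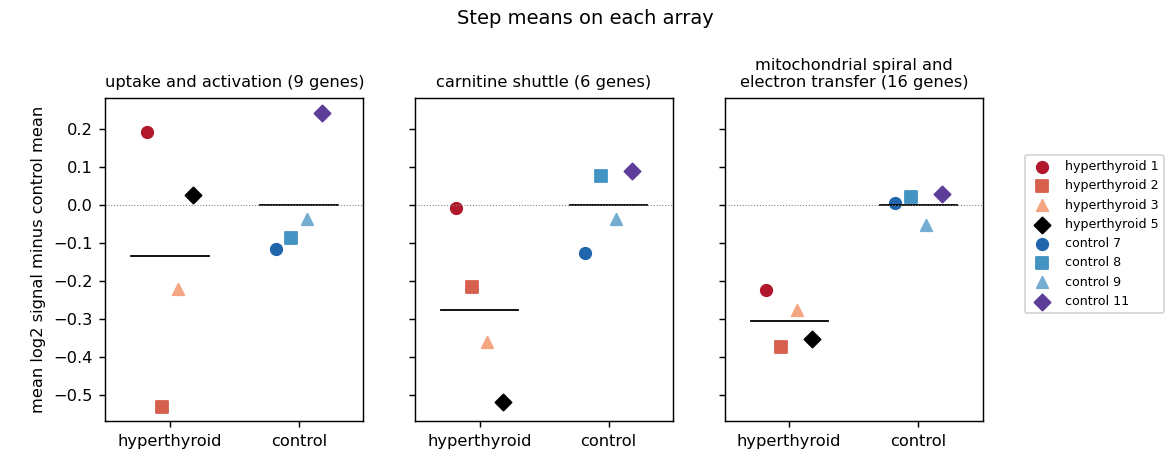
Mean log2 signal relative to the control mean (vertical axis) for the genes of 3 stages of the pathway, with 1 point for each array and a line at the mean of each group. For the 16 genes of the mitochondrial spiral and electron transfer, hyperthyroid arrays sit between -0.37 and -0.22 and controls between -0.05 and 0.03. The groups overlap for the 9 genes of uptake and activation and for the 6 of the carnitine shuttle. For uptake and activation, the control 11 point includes its outlying Acsl5 signal of 2033.

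Uptake of fatty acids was represented by 4 genes, and none differed at an unadjusted p under 0.05. Cd36, a membrane receptor that takes up long-chain fatty acids, had signals of 2142, 650, 1187 and 1703 on hyperthyroid 1, 2, 3 and 5, against 1751, 1700, 1270 and 1494 on control 7, 8, 9 and 11. Hyperthyroid 1 was above every control and hyperthyroid 2 and 3 were below every control, and the log2 difference was -0.25 ± 0.30 (SE; adjusted p = 0.763 in limma) and -0.38 ± 0.30 without hyperthyroid 5. Fabp3, the fatty acid binding protein of muscle and heart, had signals of 8454, 3906, 4275 and 6125 on hyperthyroid arrays, against 5268, 5798, 5783 and 4361 on controls. Hyperthyroid 1 and 5 were above every control and the other 2 were below every control, at 0.04 ± 0.22 on all 8 arrays and -0.02 ± 0.23 without hyperthyroid 5.

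Lpl, the lipase that frees fatty acids from lipoproteins, had a signal of 5836 on hyperthyroid 5, above the other 7 arrays (3491 to 4383), and its log2 difference was 0.09 ± 0.16 with that array and -0.06 ± 0.11 without it. Slc27a1, a fatty acid transport protein, averaged 181 ± 63.9 in hyperthyroid and 251 ± 41.9 in control muscle (SD, n = 4 each). Its log2 difference was -0.52 ± 0.25 (adjusted p = 0.452 in limma). Fat cells also express Cd36 and Lpl. The summed signal of 7 adipocyte markers was 2247, 973, 4213 and 12066 on hyperthyroid 1, 2, 3 and 5, against 2242 to 3709 on controls. Hyperthyroid 2, lowest in these markers, was lowest in Cd36 and Lpl, and hyperthyroid 5, highest in them, was highest in Lpl. Control 11, the lowest control in the markers at 2242, was the lowest control in Lpl at 3556. Hyperthyroid 1, at 2247 in the markers, had the highest Cd36. Hyperthyroid 3, second highest in the markers, had Cd36 below every control and Lpl within the controls. The part of fat cells in these values was not tested.

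Activation joins fatty acids to coenzyme A through the acyl-CoA synthetases, and the 5 measured members lay on both sides of 0. Acsl6 was the only one of the 33 genes that was higher with no overlap between groups. It had signals of 534, 420, 496 and 546 on hyperthyroid 1, 2, 3 and 5, against 372, 371, 230 and 391 on control 7, 8, 9 and 11. Every hyperthyroid array was above every control, and control 9 was the lowest of the controls. The log2 difference was 0.57 ± 0.19 (adjusted p = 0.331 in limma) and 0.53 ± 0.20 without hyperthyroid 5. Acsl1, the main synthetase of muscle, fat and liver, averaged 3229 ± 362 in hyperthyroid and 2801 ± 282 in control muscle, a log2 difference of 0.20 ± 0.13 with overlapping groups.

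Acsl5 had signals of 298, 157, 206 and 257 on hyperthyroid arrays, against 280, 211, 528 and 2033 on control 7, 8, 9 and 11. Control 11 was far above the rest, and the log2 difference of -1.17 ± 0.56 became -0.50 without it. A second, dimmer probe set of Acsl5 stood at 0.22. Control 11 was also the array with the highest summed signal of 5 markers of gland epithelium, 856 against 318 to 380 on the other controls and 45.3 to 332 on hyperthyroid arrays, and the part of such cells in the Acsl5 value was not tested. Acsl3 and Acsl4, which activate long-chain and arachidonic acid substrates, stood at -0.11 ± 0.17 and -0.06 ± 0.27, and at 0.03 ± 0.14 and -0.21 ± 0.27 without hyperthyroid 5.

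**Figure D3:**
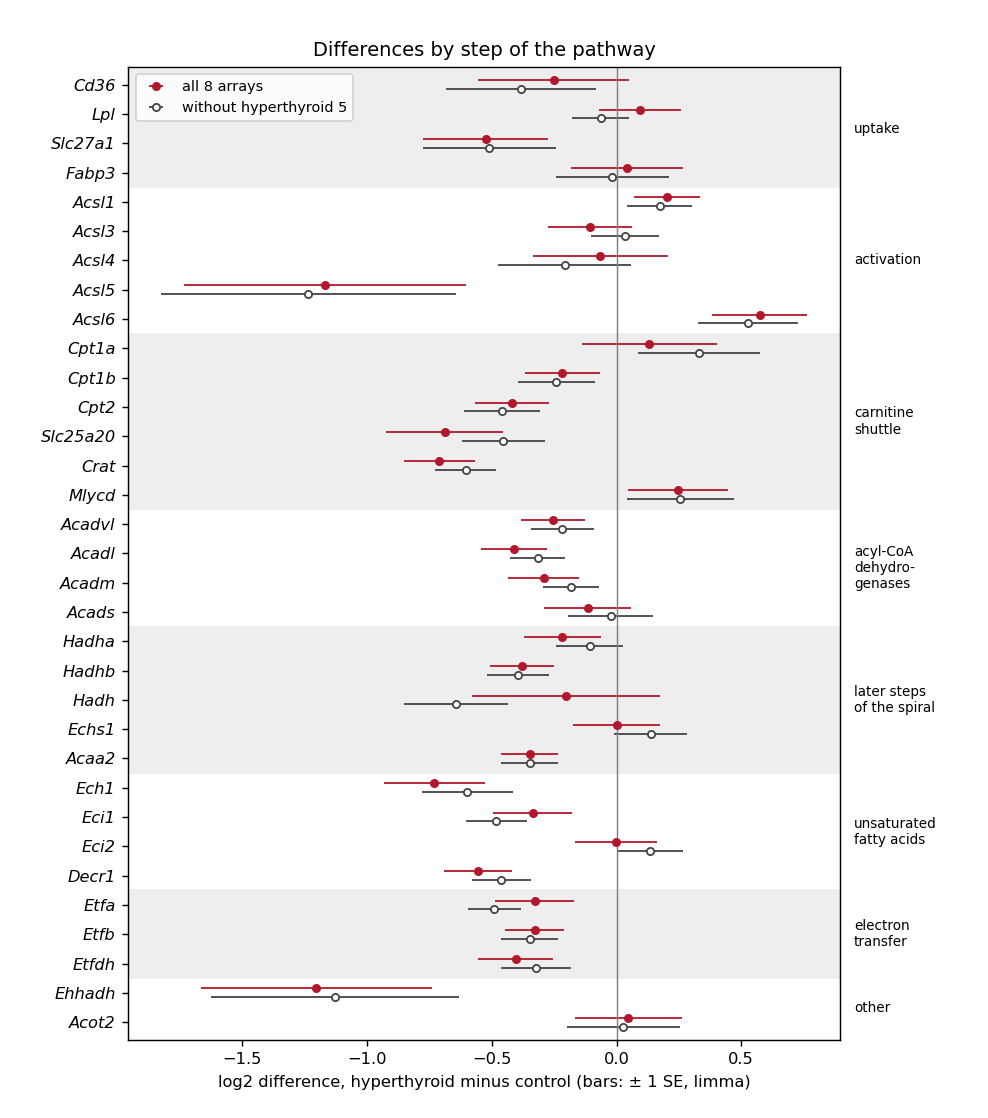
Log2 difference between hyperthyroid and control muscle (horizontal axis, with bars of 1 SE from limma) for the 33 genes, on all 8 arrays (filled) and without hyperthyroid 5 (open). The fits place 25 genes below 0 in each case, and Hadh moves from -0.20 on all 8 arrays to -0.64 without hyperthyroid 5.

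The carnitine shuttle held the gene with the smallest p of the 33. Crat, the carnitine acetyltransferase that buffers acetyl-CoA, had signals of 703, 701, 627 and 506 on hyperthyroid 1, 2, 3 and 5, against 1090, 985, 968 and 1078 on control 7, 8, 9 and 11. The highest hyperthyroid array was well below the lowest control. The hyperthyroid level was 61.1% of the control level as a ratio of geometric means, a log2 difference of -0.71 ± 0.14 (adjusted p = 0.214 in limma). Without hyperthyroid 5 it was -0.61 ± 0.12 (adjusted p = 0.0742 in limma), and over all settings tried its adjusted p ran from 0.0617 to 0.640.

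Cpt2, the inner-membrane carnitine palmitoyltransferase, had signals of 434, 334, 432 and 441 on hyperthyroid arrays, against 551, 607, 534 and 495 on controls. Hyperthyroid and control arrays were apart, and hyperthyroid 2 was the lowest. The log2 difference was -0.42 ± 0.15 (adjusted p = 0.333 in limma). Slc25a20, the carnitine-acylcarnitine translocase, had signals of 786, 670, 656 and 367 on hyperthyroid arrays, against 783, 1004, 869 and 1252 on controls. Hyperthyroid 1 overlapped with control 7, and the difference was -0.69 ± 0.23 on all 8 arrays and -0.45 ± 0.17 without hyperthyroid 5.

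The outer-membrane step, which malonyl-CoA inhibits and which sets the pace of entry, showed no such separation. Cpt1b, the muscle isoform, averaged 684 ± 90.8 in hyperthyroid and 796 ± 111 in control muscle, at -0.22 ± 0.15. Cpt1a, the liver isoform, averaged 207 ± 74.6 in hyperthyroid and 184 ± 44.8 in control muscle, at 0.13 ± 0.27 on all 8 arrays and 0.33 ± 0.24 without hyperthyroid 5. Mlycd, which degrades malonyl-CoA, stood at 0.25 ± 0.20. The groups overlapped for each of these 3 genes.

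The acyl-CoA dehydrogenases open each turn of the spiral and act on different chain lengths, and all 4 measured were lower in hyperthyroid muscle in the mean. Acadl, the long-chain enzyme, had signals of 3357, 3279, 3185 and 2509 on hyperthyroid 1, 2, 3 and 5, against 3864, 4140, 4595 and 3745 on control 7, 8, 9 and 11. The groups did not overlap, hyperthyroid 5 was the lowest, and the log2 difference was -0.41 ± 0.13 (adjusted p = 0.325 in limma). The very-long-chain enzyme Acadvl stood at -0.26 ± 0.13, the medium-chain enzyme Acadm at -0.29 ± 0.14 and the short-chain enzyme Acads at -0.12 ± 0.17. Without hyperthyroid 5, Acadm was at -0.18 ± 0.11 and Acads at -0.02 ± 0.17. The groups of these 3 overlapped, Acadvl through hyperthyroid 1 and Acadm through hyperthyroid 2.

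The later steps of the spiral were represented by 5 genes. Acaa2, the mitochondrial thiolase, had signals of 1890, 1990, 2185 and 2021 on hyperthyroid arrays, against 2814, 2518, 2374 and 2593 on controls. The groups did not overlap and the difference was the same to 2 decimals on all 8 arrays and without hyperthyroid 5, at -0.35 ± 0.11 (adjusted p = 0.328 and 0.188 in limma). A dimmer probe set of Acaa2 stood at 0.23, and the mean over both was -0.06. Hadhb, the beta subunit of the mitochondrial trifunctional protein, had signals of 4076, 4125, 5099 and 4601 on hyperthyroid arrays, against 6343, 6240, 5098 and 5591 on controls. Hyperthyroid 3 and control 9 were nearly equal, and the others were apart, at -0.38 ± 0.13.

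Its partner Hadha, the alpha subunit, stood at -0.22 ± 0.15 with overlapping groups and at -0.11 ± 0.13 without hyperthyroid 5, and a dimmer probe set of Hadha stood at 0.68. Hadh, the short-chain hydroxyacyl-CoA dehydrogenase, had signals of 397, 295, 406 and 1232 on hyperthyroid 1, 2, 3 and 5, against 450, 503, 557 and 815 on controls. Hyperthyroid 5 was the highest of the 8 arrays and the other 3 were below every control, so the log2 difference was -0.20 ± 0.38 on all 8 arrays and -0.64 ± 0.21 without hyperthyroid 5. Echs1, the short-chain enoyl-CoA hydratase, stood at 0.00 ± 0.17, and at 0.14 ± 0.15 without hyperthyroid 5.

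Auxiliary enzymes that let unsaturated fatty acids enter the spiral included 2 of the larger differences. Decr1, the dienoyl-CoA reductase, had signals of 917, 938, 912 and 710 on hyperthyroid 1, 2, 3 and 5, against 1407, 1301, 1219 and 1165 on control 7, 8, 9 and 11. The groups did not overlap, and the hyperthyroid level was 68.0% of control, at -0.56 ± 0.14 (adjusted p = 0.244 in limma) and -0.46 ± 0.12 without hyperthyroid 5 (adjusted p = 0.120 in limma). Ech1, a dienoyl-CoA isomerase, had signals of 3221, 1746, 2772 and 1731 on hyperthyroid arrays, against 3728, 4132, 3956 and 3354 on controls.

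Every hyperthyroid array was below every control for Ech1, with hyperthyroid 1 close to control 11, and the level was 60.3% of control (log2 -0.73 ± 0.20). Hyperthyroid 2 and 5 were far below the other 2, and the log2 difference was -0.34 without them. Eci1, an enoyl-CoA isomerase of mitochondria, had signals of 828.98, 799, 858 and 1239 on hyperthyroid arrays, against 1244, 1253, 1106 and 1040 on controls. Hyperthyroid 5 lay within the controls and the other 3 below them, at -0.34 ± 0.16 on all 8 arrays and -0.48 ± 0.12 without hyperthyroid 5. A dimmer probe set of Eci1 stood at 0.52. Eci2, a related isomerase found also in peroxisomes, stood at -0.004 ± 0.16, and at 0.13 ± 0.13 without hyperthyroid 5.

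Electron transfer from the acyl-CoA dehydrogenases to ubiquinone runs through the flavoprotein subunits Etfa and Etfb and the oxidoreductase Etfdh, and all 3 were lower in the mean. Etfb had signals of 2955, 2394, 2653 and 2812 on hyperthyroid 1, 2, 3 and 5, against 3348, 3217, 3673 and 3313 on control 7, 8, 9 and 11. No hyperthyroid array reached the lowest control, at -0.33 ± 0.12 (adjusted p = 0.339 in limma). Etfdh had signals of 781, 622, 788.6 and 578 on hyperthyroid arrays, against 984, 892, 790.4 and 979 on controls.

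The Etfdh groups were apart by less than 2 signal units, between hyperthyroid 3 and control 9, and the log2 difference was -0.40 ± 0.15. Etfa had signals of 1631, 1474, 1569 and 2434 on hyperthyroid arrays, against 2220, 2124, 2243 and 2159 on controls. Hyperthyroid 5 was above every control and the other 3 were well below them. The Etfa difference was -0.33 ± 0.16 on all 8 arrays and -0.49 ± 0.11 without hyperthyroid 5 (adjusted p = 0.0849 in limma).

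**Figure D4:**
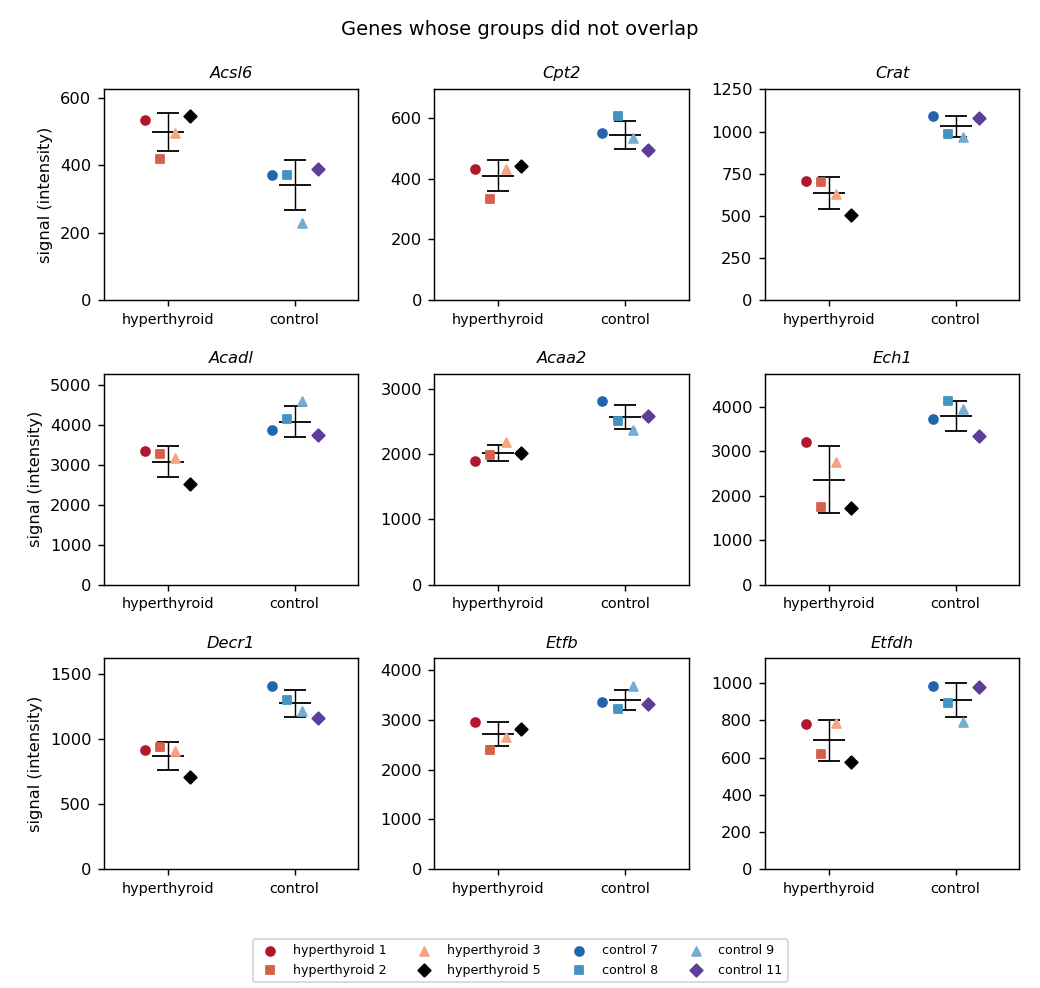
Signal (intensity, vertical axis from 0) on each array for the 9 genes whose hyperthyroid and control arrays did not overlap, with group mean and SD in black (n = 4 each). Acsl6 is higher in hyperthyroid muscle, and Cpt2, Crat, Acadl, Acaa2, Ech1, Decr1, Etfb and Etfdh are lower, with the narrowest gap in Etfdh.

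The remaining 2 genes lie beside the spiral. Ehhadh, the bifunctional enzyme of peroxisomes, was the dimmest of the 33, with signals of 57.1, 49.2, 17.8 and 29.9 on hyperthyroid arrays, against 97.4, 63.3, 51.3 and 133 on controls. Hyperthyroid 1 overlapped with control 9, and the log2 difference of -1.20 ± 0.46 rests on signals near the filter level of 28.2. Acot2, a mitochondrial acyl-CoA thioesterase, stood at 0.05 ± 0.22 with overlapping groups, and at 0.03 ± 0.23 without hyperthyroid 5. A dimmer probe set of Acot2 stood at 0.12. Another, below the filter and not tested, had 19.7, 2.95, 17.2 and 14.0 on hyperthyroid 1, 2, 3 and 5. On control 7, 8, 9 and 11 it had 61.2, 38.4, 27.7 and 34.2, a log2 difference of -1.83 at low signal.

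Other genes of fatty acid metabolism were counted from lists chosen with earlier results of these data known, and 0 of their tested genes passed the adjusted threshold in limma on all 8 arrays. Among 19 tested enzymes of mitochondrial acyl-CoA, branched-chain and ketone metabolism, 17 were lower and 2 higher, with a median of -0.29. Without hyperthyroid 5, the array with the lowest mean of this list, 14 were lower and 5 higher (median -0.25). At an unadjusted p under 0.05, 7 were lower and 1 was higher, with and without that array. Of all probe sets, 5.3% and 6.25% were so on all 8 arrays, and 7.66% and 7.59% without hyperthyroid 5. On all 8 arrays the groups did not overlap in 6 that were lower and 1 that was higher, against 3.23% and 4.33% of all probe sets. Pcca, a propionyl-CoA carboxylase subunit, stood at -0.60 ± 0.17, Hibch of valine breakdown at -0.59 ± 0.17, and Oxct1, which lets tissues use ketone bodies, at -0.32 ± 0.12, each with no overlap between groups. The citric acid cycle list had 15 of 16 tested genes lower and a median of -0.27, and 16 of 16 lower (median -0.28) without hyperthyroid 5. Of all probe sets tested, 47.5% were lower on all 8 arrays and 45.8% without hyperthyroid 5. Sdhb, Mdh2 and Ogdh had its smallest p-values, at -0.59 ± 0.12, -0.52 ± 0.12 and -0.58 ± 0.14.

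Peroxisomal oxidation and the regulators were spread to both sides. Among 10 tested peroxisomal genes 7 were lower and 3 higher (median -0.07), and 5 lower and 5 higher (median -0.04) without hyperthyroid 5. Abcd2, a peroxisomal fatty acyl-CoA transporter, stood at 0.52 ± 0.20. Hsd17b4 and Amacr stood at -0.38 ± 0.20 and -0.47 ± 0.42. Control 11 was the highest array for both, at 1078 and 931, against 617 to 660 and 186 to 250 on the other controls. Among 14 tested regulators 5 were lower and 9 higher (median 0.20), with 0 at an unadjusted p under 0.05; without hyperthyroid 5 the counts were 4 and 10 (median 0.25), with 1 higher at that level. Pdk2, which inhibits pyruvate dehydrogenase, stood at -0.32 ± 0.16, the nuclear receptor Esrra at -0.38 ± 0.22 and the mitochondrial carrier Ucp3 at 0.54 ± 0.31.

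Lipid storage and transport had 5 of 14 tested genes lower and 9 higher (median 0.12), as it did without hyperthyroid 5 (median again 0.12). Dgat2, which completes triglyceride synthesis, had signals of 424, 286, 491 and 731 on hyperthyroid 1, 2, 3 and 5, against 269, 235, 161 and 140 on control 7, 8, 9 and 11. Every hyperthyroid array was above every control, at 1.23 ± 0.29 (adjusted p = 0.232 in limma). Lipe, the hormone-sensitive lipase, stood at 0.80 ± 0.30, and Fabp5, another fatty acid binding protein, at -1.71 ± 0.62, with 3055 on control 11.

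Promoters were compared for the half-site that nuclear receptors for thyroid hormone and fatty acids bind, since both receptor families are known to act on genes of this pathway. RefSeq promoter sequence on build GRCr8, from 250 bases before to 50 after each start, was matched for 27 of the 33 genes. The half-site AGGTCA, searched on both strands, was found in 6 of the 27 (22.2%) and in 15.7% of all 27457 promoters. Direct repeats of it with 1 base between (AGGTCANAGGTCA) or 4 bases between (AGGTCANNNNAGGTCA), searched on both strands and each holding the half-site, were found in 0 of the 27, against 0.0583% and 0.00364% of all promoters. The windows around the half-sites are shown because they are the matches among these genes, with the half-site in capitals, or its reverse complement TGACCT where it lies on the other strand. They were chosen for printing after the search.
Acadvl, chr10:55236857-55236886, minus strand: atggatcaccctAGGTCAagtagaatacag
Acadvl, chr10:55236705-55236734, minus strand: agacgggagaagAGGTCAgtggtcaaggct
Echs1, chr1:204333582-204333611, minus strand: atcaccccgcccAGGTCAcgggtacatccc
Eci1, chr10:13961144-13961173, plus strand: actggctgatctTGACCTcctgaagggcgg
Eci2, chr17:30075771-30075800, plus strand: ccgagctcagttTGACCTcagcatccagct
Hadhb, chr6:31907451-31907470, minus strand: tcagtctggactTGACCTtc
Slc27a1, chr16:18312717-18312742, plus strand: gtcctcatTGACCTctggctgtccgg

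Of these 6 genes, Hadhb, Slc27a1, Eci1 and Acadvl had log2 differences between -0.52 and -0.26, while those of Echs1 and Eci2 were close to 0. A match is a description of letters in this window and was not tested against the differences.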

How the data were processed

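The deposited values are signal intensities on a linear scale, made by the authors with GCOS per the submitters' processing notes, with no version given. From the values, a mean trimmed by 2% at each end was 150.0 on each array, so arrays had been scaled to each other, while medians ran from 47.8 to 58.5. Other steps are not given in the sources used here. Of 31099 probe sets, 57 manufacturer controls were left out. Values were set to at least 1, taken to log2 and kept for the upper 60% by mean log2 signal (18625 probe sets, above a signal of 28.2). The group difference came from limma 3.58.1 (R 4.3.3; lmFit, then eBayes with a trend, two-sided), checked on simulated data, with Benjamini-Hochberg adjustment over all probe sets and a threshold of 0.05. The number of arrays limits the precision. Each rat gave 1 array.

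The rule for named genes took every member and, from each other list, the 3 genes with the smallest p. The members, lists, alternatives and left-out arrays were chosen with earlier results of these data known. Of 12 dimmer probe sets of 9 members, 5 were below the filter. Planned protein sequences were not analysed here. The alternatives were other normalization, filters, offset, variance models, array weights, averaging of probe sets, the Gapdh ratio as a covariate, and left-out arrays.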

Additional observations from a re-analysis of the deposited data

Results flagged for a closer look

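Single arrays stood apart from the other 3 of their group in 6 of the 68 groups of 4 arrays examined, by a gap larger than Dixon's 95% critical value of 0.829 of the group's range. Chance gives about 1 in 20. Hyperthyroid 5 was such an array for 4 genes. Its signal was 1232 for Hadh (the other hyperthyroid arrays 295 to 406), 1239 for Eci1 (799 to 858), 2434 for Etfa (1474 to 1631) and 710 for Decr1 (912 to 938). It was thus above the others for 3 genes and below them for Decr1. The slow-fibre markers, highest on this array, and the extraocular myosins, near 0 on it, are given in the report; their part in these values was not tested. Hyperthyroid 2 had a Cpt2 signal of 334 (the others 432 to 441), and control 9 an Acsl6 signal of 230 (the others 371 to 391). Acsl6 stood at a log2 difference of 0.39 without control 9.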

How the results depend on the processing

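In 20 alternatives 0 of the 33 genes passed the adjusted threshold in limma (lowest adjusted p 0.0617, for Crat), and the direction of 21 genes (18 lower, 3 higher) held in each that tested them. The count of genes lower at an unadjusted p under 0.05 was 18 with median centring of each array over all its probe sets, which moved the median of all probe sets from 0.03 to -0.09 and that of the 33 genes to -0.37, and the count higher was 2 with quantile normalization. Leaving out 1 array at a time gave 9 to 14 lower, 1 higher and medians of the 33 genes from -0.32 to -0.22. The other 12 genes turned sign in at least 1 setting, as follows, all with an adjusted p over the threshold. With median centring Acot2 was -0.072, Echs1 -0.12, Fabp3 -0.078 and Lpl -0.026. With quantile normalization Eci2 was 0.043. With array weights Acot2 was -0.026, Eci2 0.054 and Fabp3 -0.036. With all probe sets of a gene averaged Eci1 was 0.093 and Hadha 0.23, which brings in their dimmer probe sets. With the Gapdh ratio as a covariate Acsl4 was 0.13, Cpt1a -0.15, Echs1 -0.22 and Hadh 0.46. Without hyperthyroid 2 and 5 Acsl3 was 0.031, Cd36 0.049, Eci2 0.20 and Lpl -0.0046. Without hyperthyroid 1 and control 11, the 2 arrays high in Xist, Acot2 was -0.26, Acsl4 0.084, Cpt1a -0.044, Fabp3 -0.26 and Hadh 0.076. With 1 array left out the log2 difference ran from -0.13 to 0.16 for Acot2, -0.17 to 0.034 for Acsl3, -0.21 to 0.16 for Acsl4, -0.49 to 0.080 for Cd36 and -0.084 to 0.33 for Cpt1a. It ran from -0.11 to 0.14 for Echs1, -0.13 to 0.13 for Eci2, -0.17 to 0.20 for Fabp3, -0.64 to 0.043 for Hadh and -0.063 to 0.18 for Lpl. The cause of these turns was not tested. No paired analysis was possible because the groups share no replicate number.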
